A study of Homo sapiens with 6 samples.

Results

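Ion channels that set the membrane voltage of the beta cell were followed in RNA from the human beta-cell line EndoC-BH5 after exposure to interferon gamma together with interleukin 1 beta. The genes were taken by name from the deposited count table. They were ABCC8 and ABCC9, every KCN gene whose name ends in a family letter and a number (potassium channels), every CACN gene (voltage-gated calcium channels) and the SCN genes ending in A or B (voltage-gated sodium channels). The rule found 137 of 60611 genes. Of these, 4 encode KATP subunits, 93 encode other potassium channel subunits, 26 calcium channel subunits and 14 sodium channel subunits. There were 3 libraries of cells given vehicle and 3 of cells given the cytokine pair, all from the same wild-type line with no allele named, and the labels gave neither dose nor exposure time. Nothing in the labels ties the 3 replicates of a group to different cultures. The p-values therefore cover no more than how far these samples vary, and that variation may be technical. All cells come from 1 line, and no islet or donor sample was analysed here. The design asks how the transcriptome of the line differs after exposure to the cytokine pair.

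In beta cells, glucose metabolism raises ATP, which closes KATP channels and depolarises the membrane. Voltage-gated calcium channels then open, calcium enters and insulin granules fuse, while sodium channels help to fire the action potential and voltage- and calcium-gated potassium channels end it. KATP channels join a pore of KCNJ11 or KCNJ8 with a sulfonylurea receptor of ABCC8 or ABCC9, and the KCNJ11 with ABCC8 pair is the beta-cell form, the target of sulfonylurea drugs.

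Total counts ran from 5871481 to 16175364 per library, with vehicle replicate 1 the shallowest. Levels are given as CPM, counts per 1000000 after the TMM correction for library composition, and as mean ± SD over n = 3 libraries. A change is given on the log2 scale, cytokine relative to vehicle, with its standard error (SE). A gene is said to have risen or fallen where edgeR's quasi-likelihood test gave an adjusted p under 0.05 over all genes tested. The 7 beta-cell markers read summed to 20248 to 21383 CPM in vehicle and 30208 to 30993 CPM in cytokine libraries, mostly CHGA, IAPP and INS, and all 7 passed the test, in both directions. INS (log2 change -0.14), PDX1 (-0.54), SLC30A8 (-1.11) and MAFA (-1.89) fell, while NKX6-1 (0.12), CHGA (0.63) and IAPP (1.04) rose. MAFA was low throughout, at 4.13 to 6.20 CPM in vehicle and 1.34 to 1.60 CPM in cytokine libraries. Markers of exocrine, fibroblast, immune and endothelial cells summed to at most 5.85, 1.20, 3.34 and 0.643 CPM in any library. Of the exocrine markers, PRSS1 had 0 counts and CELA3A no more than 0.5 of an estimated count in every library. CPA1 made up the exocrine sum, at 4.64 to 5.85 CPM over all libraries, and did not pass. Alpha-cell markers summed to 1883 to 2040 CPM in vehicle and 1927 to 2080 CPM in cytokine libraries, nearly all TTR, and within them GCG fell by 0.79 and IRX2 rose by 0.62 on the log2 scale. Duct markers, nearly all KRT19, summed to 151 to 169 CPM in vehicle and 131 to 140 CPM in cytokine libraries, and KRT19 fell by 0.25. The delta-cell hormone gene SST was present at 525 to 593 CPM, in overlapping ranges of both groups. The summed level of MAP2, TUBB3 and RBFOX3, listed as neuronal markers, was 502 to 520 CPM in vehicle and 662 to 753 CPM in cytokine libraries. That sum was mostly MAP2, which rose by 0.48 with TUBB3 by 0.37, while RBFOX3, at 1.38 to 1.59 CPM in vehicle and 0.133 to 0.550 CPM in cytokine libraries, fell by 1.92 (edgeR, adjusted p = 6.1e-05). The part of these marker shifts in the channel results was not tested. In RNA from whole cultures, fewer cells that carry a transcript and less of it per cell cannot be told apart.

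Channel genes fell more often than they rose. Of the 137 genes, 81 passed the filter on low counts and were tested, of which 42 fell (51.9%), 19 rose (23.5%) and 20 did not pass. Among all 17847 genes tested, 28.8% fell, 28.3% rose and 57.1% changed in either direction, against 75.3% of the tested channel genes. CPM values of the groups did not overlap in 61 of the 81 tested genes (75.3%), against 61.1% of all tested genes. The median log2 change was -0.29 over the tested channel genes and -0.019 over all tested genes. Most changes were modest, since 19 of the called genes changed by less than 1.5-fold, 27 by 1.5-fold to 2-fold and 15 by at least 2-fold. Of these 15, 5 rose and 10 fell, where 5.97% of all tested genes rose and 4.30% fell by as much. Among the 54 genes that reached 10 CPM in a group, 33 fell, 12 rose and 9 did not pass. The share over all genes that reached 10 CPM was not taken, so these counts have no matched background. A gene nearly silent in one group could be tested only if it was higher in the other, whichever the direction, so the tested genes are not a picture of all 137. Scaling by library size alone moved the median of all genes by -0.20 on the log2 scale, and 50 channel genes then fell and 16 rose, with none of the called genes changing direction. The shares of all tested genes that fell or rose under that scaling were not taken, so those counts have no matched background either.

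**Figure D1:**
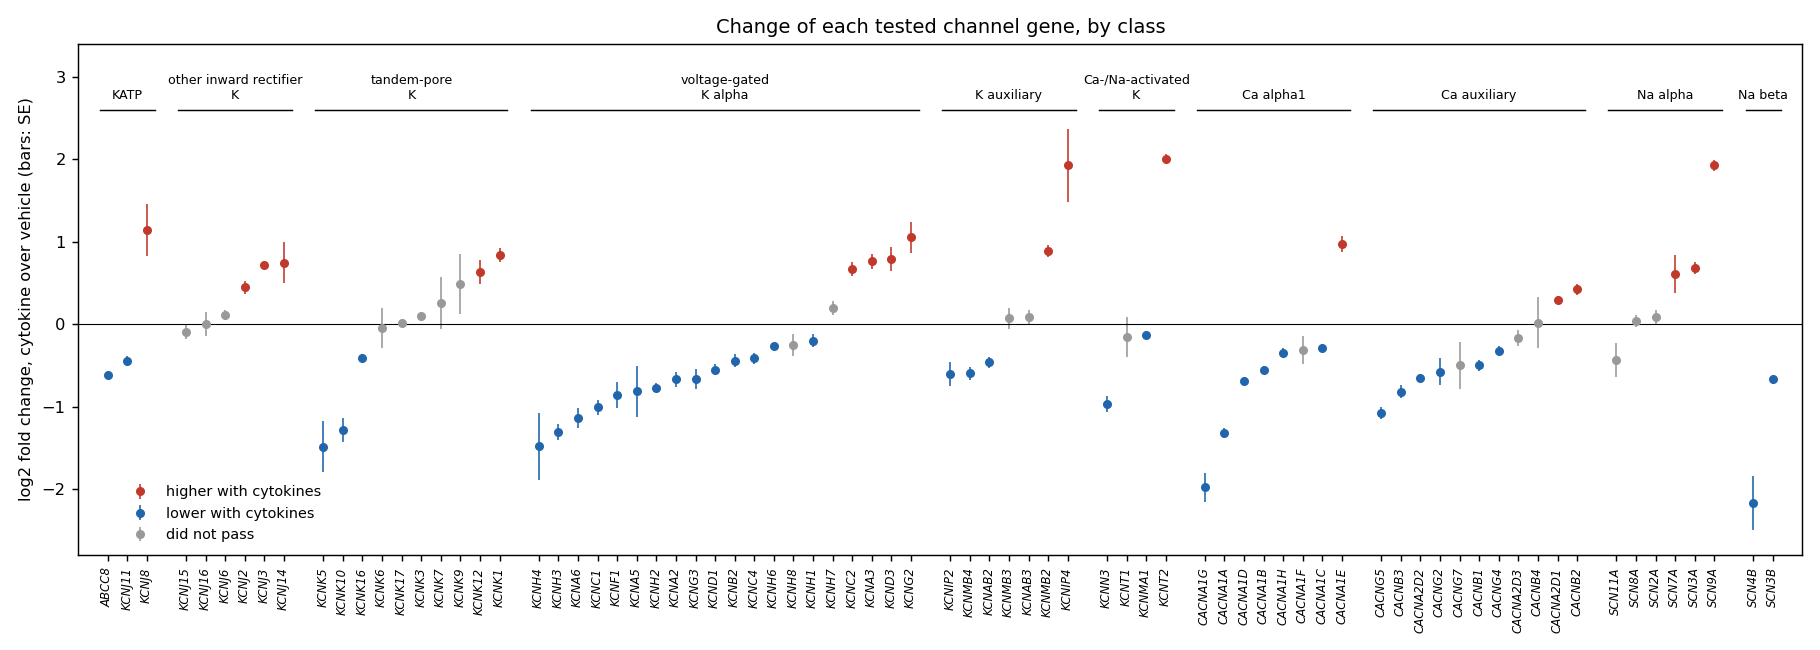
Log2 fold change of cytokine over vehicle for 77 of the 81 tested channel genes, grouped by class, with bars for the SE (red, risen; blue, fallen; grey, did not pass). KCNT2 and SCN9A stand highest among the well expressed genes, near 2, and most voltage-gated potassium and calcium pore genes lie below 0.

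Both subunits of the beta-cell KATP channel fell. ABCC8, the sulfonylurea receptor, had 656, 584 and 588 CPM in vehicle and 408, 394 and 390 CPM in cytokine libraries. Every cytokine library lay below every vehicle library, and the gene fell by 0.61 on the log2 scale (SE 0.0435, edgeR, adjusted p = 4.9e-13). KCNJ11, the pore, had 62.9, 74.8 and 69.3 CPM in vehicle and 49.7, 52.3 and 51.3 CPM in cytokine libraries. It fell by 0.45 (SE 0.0583, edgeR, adjusted p = 1.4e-07), again with no overlap. Beta-cell markers moved both ways beside them, SLC30A8 from 518 to 241 CPM and IAPP from 3998 to 8238 CPM, and their part in these falls was not tested. The genes are neighbours on the minus strand of chromosome 11, KCNJ11 at 17385859 to 17389331 and ABCC8 at 17392498 to 17476879 (GRCh38, GENCODE 29).

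Per kilobase of exon, ABCC8 stood above KCNJ11 by a ratio of 2.65, 1.99 and 2.16 in the vehicle and 2.09, 1.92 and 1.94 in the cytokine libraries. These ranges overlap, so the balance of the pair did not differ beyond its spread. The alternative pore KCNJ8, known from vascular and other non-endocrine KATP channels, was scarce at 0.953, 0.459 and 0.702 CPM in vehicle and 1.53, 1.34 and 1.59 CPM in cytokine libraries. It rose by 1.14 (SE 0.313, edgeR, adjusted p = 0.0026), on at most 23 counts in a library. DESeq2 with its own filter did not call it (adjusted p = 0.083), and over 14 alternatives the adjusted p lay between 0.0023 and that value. ABCC9, its usual partner, had 2, 3 and 18 counts in vehicle and 10, 8 and 9 in cytokine libraries and was not tested. In the cytokine libraries KCNJ11 thus stood at 16.0 CPM per kilobase and KCNJ8 at 0.599.

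**Figure D2:**
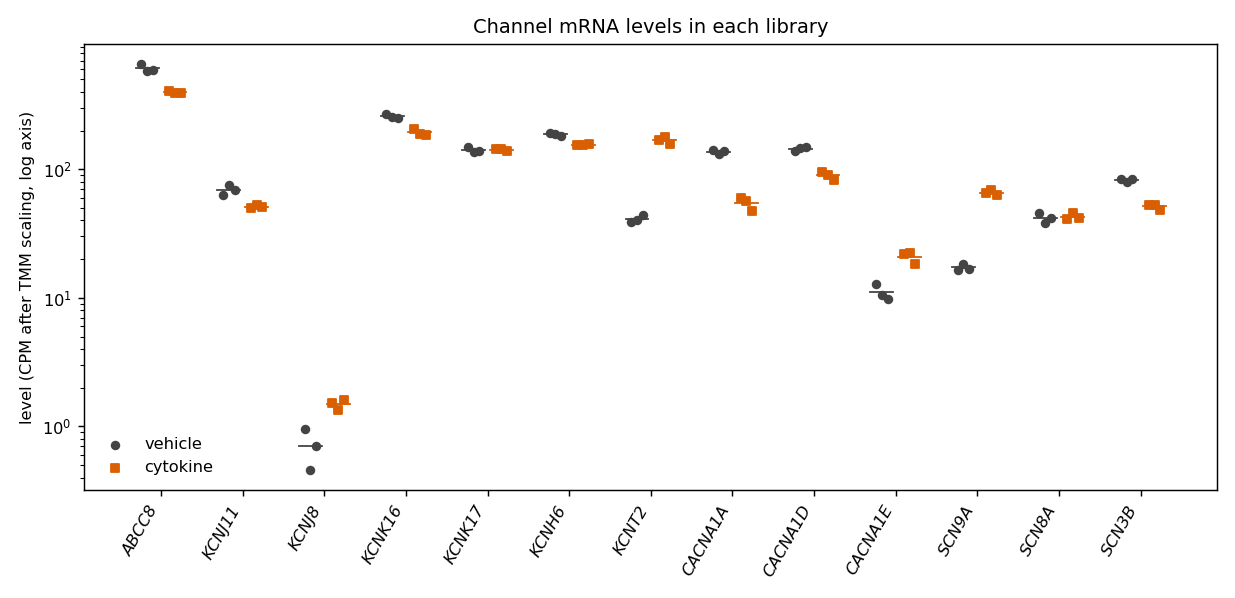
CPM after TMM scaling (log axis) of 13 channel genes in each vehicle (circles) and cytokine (squares) library, with a line at each mean. ABCC8, KCNJ11, KCNK16, CACNA1A and SCN3B are lower and KCNT2, CACNA1E and SCN9A higher in all cytokine libraries, while KCNK17 and SCN8A overlap.

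Among the tandem-pore-domain (KCNK) channels, which carry background potassium current, the pancreatic gene KCNK16 fell while its neighbour KCNK17 did not pass. KCNK16 was the highest of all tested channel genes per length, with 139 CPM per kilobase in vehicle and 104 in cytokine libraries. Its CPM was 271, 254 and 253 in vehicle and 206, 190 and 186 in cytokine libraries, a fall of 0.41 with no overlap (SE 0.0458, edgeR, adjusted p = 6.1e-09). KCNK17 had 148, 136 and 139 CPM in vehicle and 143, 145 and 138 CPM in cytokine libraries, which overlap (log2 change 0.017, edgeR, adjusted p = 0.78). With scaling by library size alone KCNK17 changed by -0.19 (edgeR, adjusted p = 0.00085). Both lie on the minus strand of chromosome 6, KCNK17 at 39299001 to 39314553 and KCNK16 at 39314698 to 39322968. The ratio of KCNK16 to KCNK17 per kilobase does not depend on scaling between libraries, and it was 2.14, 2.18 and 2.13 in vehicle and 1.68, 1.53 and 1.57 in cytokine libraries, without overlap.

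Of the 15 KCNK genes, 10 were tested, of which 3 fell, 2 rose and 5 did not pass. The share called was 50%, against 57.1% of all genes tested. KCNK1, a weak background channel, rose from 10.8, 12.6 and 10.6 CPM to 20.4, 20.1 and 20.2 CPM (log2 change 0.84, SE 0.0885, edgeR, adjusted p = 2.5e-09). KCNK10, a channel opened by stretch and fatty acids, fell from 8.40 ± 0.751 to 3.50 ± 0.755 CPM, and KCNK5, an acid-sensitive channel, from 1.69 ± 0.267 to 0.580 ± 0.132 CPM. KCNK12 rose from 3.91 to 6.08 CPM. KCNK3, an acid-sensitive channel, lay at 75.4 ± 4.56 and 81.0 ± 1.80 CPM and did not pass (edgeR, adjusted p = 0.13), though it passed without vehicle replicate 2 (0.0443). KCNK6, KCNK7 and KCNK9 did not pass and lay below 2 CPM in every library, where few counts limit what can be seen.

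Of 14 inward rectifiers (KCNJ) outside KATP, 6 were tested, and 3 rose, 0 fell and 3 did not pass, while library size as the only scaling gave 2 rises and 1 fall. In the main fit 50% were called, against 57.1% of all genes tested. KCNJ3, a pore of the G-protein-gated channels that inhibitory receptors open, had 143, 149 and 134 CPM in vehicle and 237, 239 and 222 CPM in cytokine libraries. The cytokine libraries all stood higher, a log2 change of 0.72 (SE 0.0471, edgeR, adjusted p = 8.0e-14). KCNJ6, another pore of that channel family, had 52.4 ± 0.659 and 56.6 ± 4.64 CPM and did not pass (edgeR, adjusted p = 0.12), though it passed without cytokine replicate 3 (0.0164). KCNJ5 and KCNJ9, the remaining members of that family, had at most 5 counts in any library. KCNJ2, a strong rectifier that holds the resting potential in many cells, rose from 18.1 ± 0.194 to 24.7 ± 1.81 CPM. KCNJ14 rose from 1.46 to 2.40 CPM, a call lost in both DESeq2 fits, with library size alone and without vehicle replicate 2 (edgeR, adjusted p = 0.011, with a range of 0.0079 to 0.14 over 14 alternatives). KCNJ15 and KCNJ16 did not pass.

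Voltage-gated potassium channel pores mostly fell. Of 40 genes, 23 were tested, of which 17 fell, 4 rose and 2 did not pass, with a median log2 change of -0.56. The share that fell was 73.9% and the share called 91.3%, against 28.8% and 57.1% of all genes tested. KCNH2, the ERG channel that repolarises heart cells, fell from 118, 107 and 111 to 68.6, 65.5 and 61.6 CPM (log2 change -0.77, SE 0.0525, edgeR, adjusted p = 1.8e-13). Its relative KCNH6, the highest of the class per length, fell by less, from 193, 187 and 182 to 154, 154 and 156 CPM (log2 change -0.27, SE 0.0431, edgeR, adjusted p = 4.3e-06). As a share of the summed CPM per kilobase of the class, KCNH6 held 30.1% ± 0.905 in vehicle and 32.8% ± 0.865 in cytokine libraries.

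KCNB2, a delayed rectifier, fell from 26.1, 27.5 and 27.0 to 18.5, 22.5 and 18.6 CPM, with no overlap (log2 change -0.45, SE 0.0794, edgeR, adjusted p = 1.9e-05). The largest falls in the class were those of KCNH4, KCNH3, KCNA6, KCNC1 and KCNF1, by 1.48, 1.32, 1.13, 1.01 and 0.86 on the log2 scale. KCNH3 went from 21.3 ± 0.968 to 8.55 ± 1.12 CPM and KCNC1, a fast delayed rectifier, from 21.2 ± 1.31 to 10.6 ± 0.979 CPM. KCNH4 rested on at most 18 counts in a library. The exons of KCNA6 lie wholly within those of GALNT8 on the same strand, which fell with it from 6.52 to 3.57 CPM, so the value of KCNA6 is uncertain. Also lower were KCNA2, KCNG3, KCND1, KCNC4, KCNA5 and KCNH1. The calls of KCNA5 and KCNH1 were fragile, and KCNH1 shares 36.9% of its exonic length with AC096636.1 on the opposite strand. On the same strand KCNH1 shares 16.1% with AL590132.1, which went from 2.66 to 1.99 CPM, and 3.94% with AC092017.3. KCNA5 and KCNH1 each lost the call under 7 of 14 alternatives (edgeR, adjusted p = 0.024 and 0.027, up to 0.19 and 0.27).

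The 4 voltage-gated potassium pores that rose were KCNA3, KCNC2, KCND3 and KCNG2. KCNA3, best known as the delayed rectifier of T cells, had 13.0, 11.9 and 13.8 CPM in vehicle and 22.8, 23.2 and 20.3 CPM in cytokine libraries. All cytokine libraries were higher, a log2 change of 0.76 (SE 0.0872, edgeR, adjusted p = 1.2e-08). The T-cell gene CD3E reached at most 0.318 CPM in any library and PTPRC, the general leukocyte marker, at most 0.234 CPM. The remaining immune marker read, CD14, had means of 2.63 CPM in vehicle and 2.06 CPM in cytokine libraries and did not pass (edgeR, adjusted p = 0.20). Which cells carry the KCNA3 transcript was not tested. KCNC2 rose from 12.4 ± 0.642 to 19.5 ± 0.883 CPM, KCND3, an A-type channel, from 5.50 ± 1.44 to 8.77 ± 0.679 CPM, and KCNG2, a silent subunit that modifies other pores, from 2.83 ± 1.07 to 5.49 ± 0.748 CPM. KCNH7 lay at 19.6 and 22.1 CPM and did not pass (edgeR, adjusted p = 0.059), but it passed with DESeq2 size factors and without vehicle replicate 2 or cytokine replicate 3. KCNH8 also did not pass.

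KCNT2, a potassium channel opened by intracellular sodium, had the largest rise of all channel genes at 1 CPM or more. Its levels were 39.1, 40.6 and 44.1 CPM in vehicle and 168, 178 and 157 CPM in cytokine libraries, and the groups lay far apart. It was 4.01-fold higher, a log2 change of 2.00 (SE 0.0576, edgeR, adjusted p = 1.0e-22). Per length it went from 5.81 to 23.6 CPM per kilobase, which placed it above KCNJ11 in the cytokine libraries. Its relative KCNT1, at 2.04 ± 0.322 and 1.77 ± 0.426 CPM, did not pass (edgeR, adjusted p = 0.60). KCNN3, a small-conductance calcium-activated channel, fell from 22.2, 20.0 and 20.4 to 12.0, 10.2 and 9.27 CPM (log2 change -0.97, SE 0.0943, edgeR, adjusted p = 4.7e-10).

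KCNMA1, the pore of the large-conductance calcium-activated BK channel, differed little, at 121, 133 and 134 CPM in vehicle and 122, 120 and 114 CPM in cytokine libraries. The ranges overlap, and its fall of 0.13 (edgeR, adjusted p = 0.021) was lost under 6 of 14 alternatives, with adjusted p up to 0.16. Its accessory subunits moved in opposite directions. KCNMB2, which makes BK channels inactivate, rose from 23.2, 28.1 and 23.9 to 45.1, 50.1 and 44.3 CPM (log2 change 0.89, SE 0.0733, edgeR, adjusted p = 1.5e-11). KCNMB4, which slows BK gating, fell from 21.4, 21.7 and 22.2 to 14.1, 14.6 and 14.8 CPM (log2 change -0.59, SE 0.0790, edgeR, adjusted p = 1.9e-07). Per kilobase, KCNMB2 over KCNMA1 went from 1.95 ± 0.173 to 3.94 ± 0.234 and KCNMB4 over KCNMA1 from 1.23 ± 0.0541 to 0.894 ± 0.0502. KCNMB2 shares 32.1% of its exonic length with AC117457.1 on the same strand, which went from 14.6 to 26.7 CPM, so its level is uncertain.

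Of 16 accessory potassium genes, which also include KCNAB, KCNE and KCNIP genes, 7 were tested, of which 3 fell, 2 rose and 2 did not pass. The share that fell was 42.9%, the share that rose 28.6% and the share called 71.4%. Among all genes tested these shares were 28.8%, 28.3% and 57.1%. KCNAB2, a cytoplasmic beta subunit, fell from 39.4 ± 2.75 to 28.2 ± 0.771 CPM and KCNIP2, a calcium-binding partner of A-type channels, from 6.54 ± 0.309 to 4.36 ± 0.714 CPM. KCNIP4 rose by 1.93 (SE 0.448, edgeR, adjusted p = 0.00053) but stayed under 1 CPM as a mean, at 0.245 and 0.923 CPM. KCNAB3 and KCNMB3 did not pass, and KCNMB3 shares 37.9% of its exonic length with PIK3CA on the opposite strand. None of the 5 KCNE genes, small subunits of KCNQ and KCNH channels, passed the filter.

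Calcium channel pores mostly fell. Of 10 CACNA1 genes, 8 were tested, of which 6 fell, 1 rose and CACNA1F did not pass, with a median log2 change of -0.45. The share that fell was 75% and the share called 87.5%, in a class of only 8 tested genes. Among all genes tested 28.8% fell and 57.1% were called, with a median log2 change of -0.019. CACNA1A, the P/Q-type pore, had 142, 131 and 138 CPM in vehicle and 59.9, 57.0 and 47.1 CPM in cytokine libraries. No library came near the other group, and the gene fell by 1.32 (SE 0.0629, edgeR, adjusted p = 7.2e-16). CACNA1D, an L-type pore that opens at low voltage, fell from 138, 146 and 148 to 95.5, 90.7 and 83.0 CPM (log2 change -0.69, SE 0.0513, edgeR, adjusted p = 1.4e-12). CACNA1C, another L-type pore, fell by less, from 113, 114 and 119 to 99.3, 95.7 and 89.4 CPM (log2 change -0.29, SE 0.0493, edgeR, adjusted p = 1.1e-05). CACNA1D shares 6.8% of its exonic length with CHDH on the opposite strand, which went from 75.1 to 48.1 CPM.

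The N-type pore CACNA1B fell by 0.56 from 111 ± 5.90 to 74.8 ± 3.34 CPM. CACNA1H, a T-type pore and the highest of the class per length, fell by 0.35 from 155 ± 15.5 to 120 ± 0.971 CPM, and its relative CACNA1G fell from 7.63, 6.34 and 6.49 to 2.00, 1.34 and 1.67 CPM (log2 change -1.98, SE 0.176, edgeR, adjusted p = 7.5e-11). CACNA1E, the R-type pore, was the exception. It rose from 12.9, 10.6 and 9.77 to 22.1, 22.3 and 18.3 CPM, with no overlap (log2 change 0.97, SE 0.101, edgeR, adjusted p = 1.7e-09). The summed CPM per kilobase of the 10 genes was 47.5 ± 2.40 in vehicle and 34.1 ± 1.33 in cytokine libraries. Within that sum, CACNA1A went from 6.69% ± 0.190 to 3.70% ± 0.320, CACNA1D from 14.8% ± 1.27 to 12.8% ± 0.434, CACNA1E from 1.27% ± 0.125 to 3.35% ± 0.240 and CACNA1H from 37.8% ± 1.96 to 41.1% ± 1.32. These shares do not depend on scaling between libraries, and none of these 4 overlapped between groups. Exonic lengths join all annotated transcripts, 43159 bases for CACNA1A, so per-length levels of genes with long minor transcripts are too low. The fold change of a single gene between groups is not affected. Class sums and shares per kilobase, and the size of their shifts, do depend on these lengths.

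**Figure D3:**
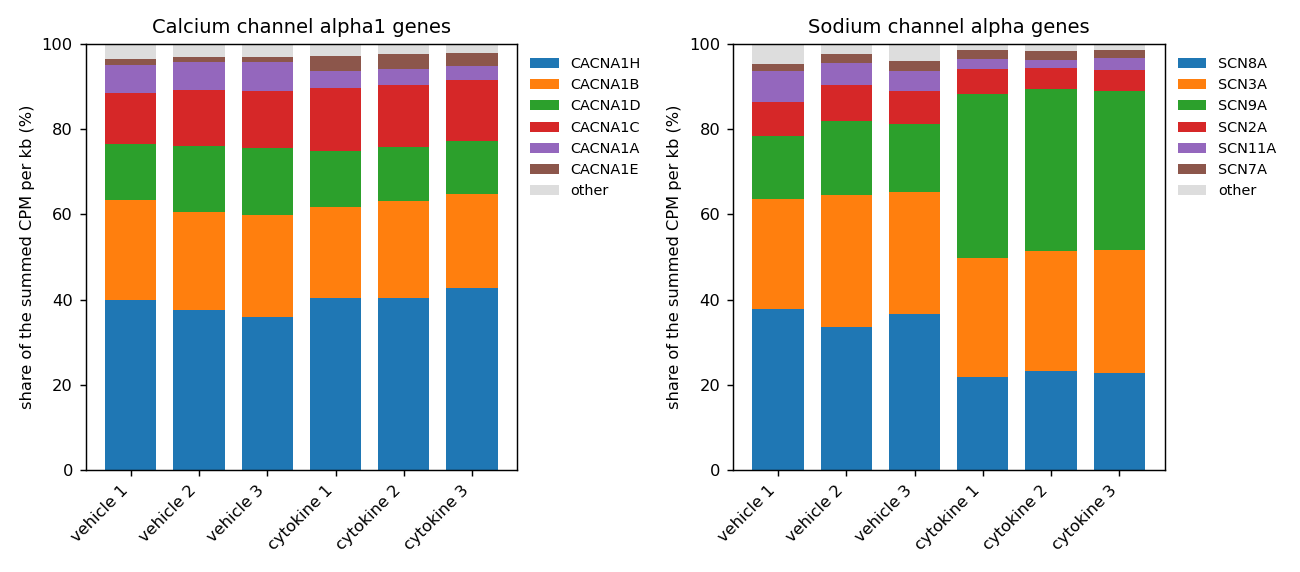
Share of each gene in the summed CPM per kilobase of exon (percent) of the calcium channel alpha1 genes and the sodium channel alpha genes in each library. CACNA1H holds the largest calcium share throughout, while SCN9A goes from 16.1% to 38.0% of the sodium genes on average and SCN8A from 36.0% to 22.7%.

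Accessory calcium channel genes fell in 6 of 11 tested, rose in 2 and did not pass in 3. The share that fell was 54.5% and the share called 72.7%, against 28.8% and 57.1% of all genes tested. CACNA2D1 and CACNA2D2 encode alpha2delta subunits, which carry pores to the surface, and they moved apart. CACNA2D1, the highest calcium channel gene per length, had 348, 382 and 372 CPM in vehicle and 444, 485 and 418 CPM in cytokine libraries, and rose by 0.29 (SE 0.0476, edgeR, adjusted p = 8.3e-06). Scaling by library size alone left 0.086 of that rise (edgeR, adjusted p = 0.10). CACNA2D2 fell from 150, 146 and 147 to 97.3, 96.1 and 88.1 CPM (log2 change -0.65, SE 0.0479, edgeR, adjusted p = 1.1e-12). The ratio of CACNA2D1 to CACNA2D2 per kilobase was 1.63, 1.84 and 1.78 in vehicle and 3.20, 3.54 and 3.33 in cytokine libraries, without overlap.

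The cytoplasmic beta subunits, which gate and stabilise calcium channel pores, split likewise. CACNB2 rose from 28.3, 27.6 and 30.5 to 38.6, 38.1 and 40.0 CPM (log2 change 0.42, SE 0.0658, edgeR, adjusted p = 2.9e-06). CACNB3 fell from 30.5, 26.8 and 25.3 to 15.5, 16.2 and 14.1 CPM (log2 change -0.82, SE 0.0829, edgeR, adjusted p = 1.1e-09), and CACNB1 fell from 37.3, 33.1 and 34.0 to 24.6, 25.0 and 23.5 CPM. Of the gamma subunit family, CACNG5 fell from 43.7 ± 3.54 to 20.9 ± 1.69 CPM and CACNG4 from 84.0 ± 1.95 to 67.3 ± 2.16 CPM. CACNG2 fell from 4.62 to 3.20 CPM, a call lost in both DESeq2 fits (edgeR, adjusted p = 0.0039, up to 0.13 over 14 alternatives). CACNA2D3, at 12.6 and 11.2 CPM, CACNB4 and CACNG7 did not pass, and CACNA2D3 passed with library size alone.

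Among the 10 sodium channel pores, 7 were tested. Rises outnumbered falls by 3 to 1, with 3 that did not pass, but with library size as the only scaling this turned to 2 rises and 3 falls. In the main fit 57.1% of the 7 were called, the same share as among all genes tested (57.1%). SCN9A, a pore that amplifies small depolarisations and is known from pain-sensing neurons, had 16.5, 18.4 and 16.9 CPM in vehicle and 65.9, 69.3 and 62.6 CPM in cytokine libraries. It was 3.80-fold higher with the groups far apart, a log2 change of 1.93 (SE 0.0693, edgeR, adjusted p = 3.2e-20). The antisense gene AC010127.1 shares 8.17% of the exonic length of SCN9A and lay at 0.189 and 0.312 CPM. SCN3A rose from 20.5, 23.2 and 21.5 to 34.1, 36.6 and 34.4 CPM (log2 change 0.68, SE 0.0708, edgeR, adjusted p = 2.1e-09). SCN7A, an atypical member gated by sodium level, rose from 1.43 to 2.26 CPM, a call lost under 8 of 14 alternatives (edgeR, adjusted p = 0.027, range 0.024 to 0.21).

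SCN8A had 45.9, 38.4 and 41.6 CPM in vehicle and 40.7, 45.9 and 41.6 CPM in cytokine libraries. It did not pass (log2 change 0.038, edgeR, adjusted p = 0.66), and with library size alone it changed by -0.16 (edgeR, adjusted p = 0.035). SCN2A also did not pass, at 15.3, 15.5 and 14.1 CPM in vehicle and 17.0, 15.6 and 14.5 CPM in cytokine libraries. SCN11A, at 3.44 and 2.33 CPM, did not pass, but it passed with library size alone, with the replicate number as a block and without vehicle replicate 3. Summed per kilobase, the 10 alpha genes stood at 8.12, 7.66 and 7.64 in vehicle and 12.4, 13.2 and 12.2 in cytokine libraries. Within that sum SCN9A held 14.8%, 17.5% and 16.1% in vehicle and 38.6%, 38.1% and 37.4% in cytokine libraries, and passed SCN8A, which went from 36.0% ± 2.19 to 22.7% ± 0.664. SCN3A, SCN2A, SCN1A, SCN9A and SCN7A lie in this order along chromosome 2 from 165087522 to 166494326. Of these neighbours SCN3A, SCN9A and SCN7A rose, SCN2A did not pass and SCN1A was not tested, with at most 13 counts.

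The sodium channel beta subunits, which anchor and modulate the pores, fell in both genes tested, where 28.8% of all genes tested fell. SCN3B fell from 83.4, 79.0 and 83.6 to 53.1, 53.0 and 48.4 CPM (log2 change -0.67, SE 0.0542, edgeR, adjusted p = 8.6e-12). SCN4B was scarce and fell from 1.59, 2.30 and 1.93 to 0.599, 0.236 and 0.434 CPM (log2 change -2.17, SE 0.328, edgeR, adjusted p = 1.7e-06). Neither overlapped between groups. SCN2B had at most 1 count in any library and was not tested.

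**Figure D4:**
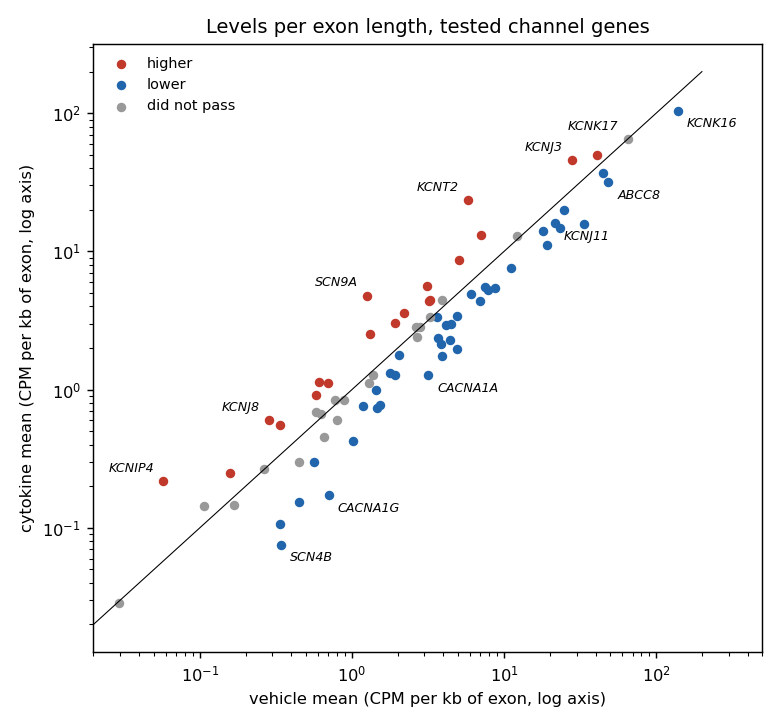
Mean level per kilobase of exon (CPM per kb, log axes) of 77 of the 81 tested channel genes in cytokine against vehicle libraries, with a line of equal levels. KCNK16 is highest in both groups, KCNT2 and SCN9A lie well above the line and CACNA1A, CACNA1G and SCN4B below it.

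For SCN9A, which rose, and CACNA1A, which fell, the sequence before the RefSeq start was read (GRCh38.p14, 250 bases). Of the 137 genes, 98 had at least 1 such window, 150 in all, with a median GC content of 64.0% against 58.0% over 35116 windows. The interferon-stimulated response element (GAAA, any 2 bases, GAAA), a form bound by interferon regulatory factors, was sought on both strands and was in 4 of the 150 windows (2.67%) against 3.02% of all windows. A loose NF-kappaB form (GGG, any 5 bases, CC) was in 60.7% against 54.4%, too common to mark and so left in lower case. SCN9A (chr2:166376002-166376194) and CACNA1A (chr19:13506504-13506729) held no interferon-stimulated response element and are shown as the part of the window outside annotated exons. Both are on the minus strand, written 5′ to 3′ in lower case.
SCN9A: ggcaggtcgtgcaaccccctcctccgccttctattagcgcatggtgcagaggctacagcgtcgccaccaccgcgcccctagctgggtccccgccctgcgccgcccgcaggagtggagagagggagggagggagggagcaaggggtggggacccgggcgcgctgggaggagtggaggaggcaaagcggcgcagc
CACNA1A: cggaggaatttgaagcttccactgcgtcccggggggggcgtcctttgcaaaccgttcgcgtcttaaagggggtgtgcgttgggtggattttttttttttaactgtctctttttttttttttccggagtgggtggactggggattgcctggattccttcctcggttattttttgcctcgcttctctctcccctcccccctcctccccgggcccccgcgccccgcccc
A match describes letters in this window and no more, and the absence of one says nothing of a factor.

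A list of 60 further genes of membrane excitability and calcium handling was read beside the channels. It held leak, HCN, TRP and chloride channels, sodium and calcium pumps, calcium stores and calcium channel inhibitors. Of these, 54 were tested, of which 24 fell (44.4%), 14 rose (25.9%) and 16 did not pass. Among all genes tested, 28.8% fell and 28.3% rose. The median log2 change of the list was -0.12, against -0.019 over all genes tested. With scaling by library size alone 38 fell and 9 rose, so the share of rises among the calls went from 36.8% to 19.1%. The matching shares over all genes under that scaling were not taken. GEM, a small GTPase that inhibits voltage-gated calcium channels through their beta subunits, rose most. It had 6.51, 6.80 and 5.85 CPM in vehicle and 35.6, 36.0 and 37.8 CPM in cytokine libraries (log2 change 2.54, SE 0.0900, edgeR, adjusted p = 2.3e-20). ATP1B1, a sodium pump subunit, rose 3.35-fold to 442 CPM or more in each cytokine library, and MCU, the pore of the mitochondrial calcium uniporter, rose by 0.92 on the log2 scale. TRPM5, a calcium-activated cation channel, fell by 1.39, NALF2, an accessory gene of the sodium leak channel, by 1.31 and TMEM37, related to the calcium channel gamma subunits, by 1.20 on the log2 scale. NALCN, the sodium leak pore, fell by 0.77 from 127 CPM or more in each vehicle library, and its partner UNC80 by 0.67.

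The 56 channel genes below the filter included 8 with 0 counts in every library, namely CACNG3, KCND2, KCNG1, KCNJ12, KCNJ13, KCNN2, KCNS1 and SCN10A. In all, 41 had at most 5 counts in any library. The 5 above 10 counts in some library included ABCC9, SCN1A and KCNQ1. Others of the 56 were CACNA1I, CACNA1S, CACNA2D4, CACNG1, CACNG6, CACNG8, KCNA1, KCNA4, KCNA7, KCNA10, KCNAB1, KCNE1, KCNE2, KCNE3, KCNE4, KCNE5, KCNG4, KCNH5, KCNIP1, KCNIP3, KCNJ1, KCNJ4, KCNJ5, KCNJ9, KCNJ10, KCNJ18, KCNK2, KCNK4, KCNK13, KCNK15, KCNK18, KCNMB1, KCNN1, KCNN4, KCNQ3, KCNQ5, KCNS2, KCNS3, KCNU1, KCNV1, KCNV2, SCN2B and SCN4A. In the authors' deposited table, 19 channel genes were higher and 42 lower, and 18 and 40 of these were called the same way in the refit, with 0 called in opposite directions. The authors' deposited table also called KCNU1 higher and KCNQ1 lower, both below the filter here, and did not call SCN7A, KCNA5 and KCNH1. KCNU1 and KCNQ1 had at most 7 and 11 counts in any library.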

How the data were processed

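RNA of 6 libraries was compared, 3 vehicle and 3 cytokine, grouped by the treatment label. Per the labels' protocols, RNA came from the Nucleospin miRNA kit and libraries from the Directional version of NEBNext Ultra II. Per the submitters' processing notes, which state no roles, the software included STAR 2.7.5a, cutadapt 2.10, Picard 2.23.2, HTSeq 0.12.4, MultiQC 1.9 and FastQC 0.11.9, and the build was GRCh38. Which annotation and strand setting the counting used is not given in the sources used here, so reads of overlapping genes are uncertain: 35 tested channel genes share exonic bases with another gene, 8 of them over 10% of their length.

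The authors deposited an estimated count per gene and library, not normalised and not always whole, and 76.3% of the channel values above 0 lay within 0.005 of a whole number. Per gene, the authors also deposited a p-value with its FDR, an F statistic (a score) and log2 values for the fold change and the average CPM, per the file headers. The headers name no tool. Columns named NT were taken as vehicle, since the others carry the cytokine name and replicate numbers match the sample titles. Estimated counts were rounded, filtered with filterByExpr (17847 genes left), scaled with TMM and tested with edgeR 4.0.16 in R 4.3.3 (robust quasi-likelihood fit on group, Benjamini-Hochberg adjustment over all 17847 genes at 0.05). The SE was the size of the log2 change divided by the square root of F. Levels per kilobase used the joined exons of GENCODE 29. Replicates differed by a chi-square of 1.37 to 2.45 per gene, so no pair was counted as 1. The scripts were tested on simulated data.

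Named genes were the KATP genes, the highest gene per length in each class, up to 5 risen and 5 fallen per class with at least 1 CPM, genes of at least 10 CPM that did not pass, and the 3 largest rises and falls of the excitability list. Other channel genes, NALCN and UNC80 were named after their values were seen, and some channel genes, and 1 further motif searched for before the start sites, are not reported here, though counts over genes include those genes. The members and lists were chosen with earlier results of these data known. Alternatives are given at the end.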

Additional observations from a re-analysis of the deposited data

How the results depend on the processing

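Of the 61 channel genes called, 51 kept call and direction under all alternatives that gave them a value, apart from the 2 stricter thresholds below. The alternatives were other scalings, filters, DESeq2 1.42.0, a fit that was not robust, the replicate block and each library left out, up to 14 per gene. The other 10 lost the call under at least 1, and none reversed. Testing against a fold of 1.5 (glmTreat) left 8 channel genes higher and 16 lower, and 5 and 6 of the excitability list. With library size alone the excitability list had 9 higher and 38 lower, and KCNK17 and SCN8A, which did not pass, changed sign to -0.19 and -0.16. That scaling moved the median of all tested genes by -0.20 on the log2 scale, and why the scalings differ was not tested. An adjusted p of 0.01 left 17 channel genes higher and 39 lower. Leaving out 1 library gave 18 to 21 channel genes higher and 40 to 42 lower, and 15 to 17 and 23 to 24 of the list. With the replicate block, 19 channel genes were higher and 44 lower, and 14 and 24 of the list. Shares over all genes were not taken under any of these settings, so the counts have no matched background. Same-numbered libraries did not deviate together (correlations 0.014, -0.045 and -0.048 over 17847 genes), so the main fit did not use the numbers as pairs. Deviations from a mean of 3 libraries can hide a weak pairing, so pairing is not excluded. In vehicle replicate 1, the shallowest, 1 count was 0.159 CPM, so changes of genes near 1 CPM were hard to detect.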
